A study of Homo sapiens with 18 samples.

Results

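The enzymes of polyamine metabolism and their regulators were followed over 18 arrays of LNCaP cells as 10 genes chosen by name: ODC1, AMD1, SRM, SMS, SAT1, SMOX, PAOX, AZIN1, OAZ1 and OAZ2. The platform's probe annotation gave these genes 17 of the 47303 probes on the array, and all 17 are accounted for below. A total of 15 probes were kept for testing because they were detected (detection p-value under 0.01) on at least 2 arrays. The 2 others were a PAOX probe (ILMN_2278265) detected on 1 array and a SMOX probe (ILMN_2280707) detected on 0 of 18 arrays. SMS had 2 probes, and SMOX, PAOX and AZIN1 had 3 each.

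LNCaP is a line of human prostate cancer cells that depends on androgen, and FOXA1 is a forkhead transcription factor that helps the androgen receptor reach its sites in chromatin. The study asked how mutants of FOXA1 alter gene expression with and without androgen. Cells were starved of hormone for 3 days in 5% charcoal-stripped serum and then received 1 nM R1881, a synthetic androgen, or ethanol, its vehicle, for 24 h. Each of 9 constructs was arrayed 1 time per treatment. In 6 of them the hairpin shFOXA1 was combined with FOXA1 carrying G87R, D226N, M253K, F266S or L388M, or with a form labelled FENG, which the labels do not define and which is named here as given. A further line carried shFOXA1 with wild-type FOXA1, and the knockdown line carried shFOXA1 with GFP. Control cells carried the vector pGIPZ with GFP. All mutant, wild-type and knockdown lines therefore contain the hairpin, and whether a line is 1 clone or a pool is not given in the sources used here. D226N, M253K and F266S alter residues inside the DNA-binding forkhead domain, whereas G87R and L388M alter residues outside it.

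Polyamines are small positively charged molecules that bind nucleic acids and are needed for growth. ODC1 decarboxylates ornithine to putrescine, and SRM and SMS then add aminopropyl groups, supplied through AMD1, to make spermidine and spermine. SAT1 acetylates spermidine and spermine, PAOX oxidises the acetylated forms, and SMOX oxidises spermine directly. The antizymes OAZ1 and OAZ2 bind ODC1 and lead it to degradation, and AZIN1 takes antizyme away from ODC1. The prostate is known for its high polyamine content, and ODC1 is known as an androgen-induced gene there.

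Levels are given as log2 intensity after background correction and quantile normalization, and changes as log2 differences with their standard error (SE) from a limma fit with construct and treatment as terms. P-values were adjusted by Benjamini-Hochberg over all 20117 kept probes, with a threshold of 0.05. With 1 array per condition the error is the residual of this fit, which holds differences between constructs in their androgen response together with technical spread. Whether arrays came from separate cultures is not stated, so p-values measure only that spread. Intensities of different probes depend on the probe, so no probe's level is set against another's. In extracts of whole cultures, fewer cells of a kind and less RNA per cell cannot be told apart.

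Mean raw signal ran from 233.1 to 303.9 per array, and 15855 to 17278 probes were detected. The typical probe of the M253K ethanol array lay 0.32 log2 units from the mean of the other arrays of its treatment, and that of FENG R1881 0.23, with 0.15 as the median over arrays. Control ethanol and G87R ethanol followed, both at 0.20. M253K ethanol, FENG R1881 and G87R ethanol were singled out in earlier results of these data, and calls of mutants are given with and without these 3 arrays. The FOXA1 probe was lower in knockdown than in control cells (11.16 against 11.93 in ethanol, 11.07 against 11.73 with R1881), a change of -0.71 ± 0.13 (adjusted p = 0.00523, limma). The androgen target FKBP5 rose by 2.89 with R1881. Among markers with a probe, 7 of 7 luminal prostate genes, 0 of 2 basal genes, 1 of 3 leukocyte genes and 3 of 5 fibroblast and endothelial genes were detected on at least 2 arrays, with PTPRC, CD3E, DCN and PECAM1 undetected. The detected leukocyte marker was CD68, a lysosomal protein of macrophages that other cells also make, and the other detected markers were VWF, COL1A1 and COL3A1.

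With R1881, the first and the last enzyme of polyamine synthesis and the enzyme that acetylates polyamines rose together across all 9 constructs, while AMD1, SRM, the oxidases and the antizymes did not pass the test. The adjusted p was under 0.05 for 4 of 15 member probes (ODC1, both SMS probes and SAT1), all higher, against 9.65% of all kept probes in either direction and 4.61% higher. The median change was 0.14 over the member probes and -0.01 over all probes.

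ODC1 (ILMN_1748591; chromosome 2, 10439968 to 10448327, GRCh38.p14) was at 12.51 in control cells, a median of 12.85 and 13.40 with FENG under R1881, against 11.16 in knockdown cells, a median of 11.43 and 11.70 with G87R in ethanol. The lowest R1881 array thus lay above the highest ethanol array. Among the member probes, 1 of 15 had arrays that did not overlap between treatments, against 1.12% of all probes. ODC1 averaged 12.93 ± 0.26 with R1881 and 11.40 ± 0.18 in ethanol (SD, n = 9 each). The change was 1.53 ± 0.07 (2.88-fold, adjusted p = 1.89e-07, limma), rank 34 of 20117 probes by size of increase.

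By construct, the ODC1 response was 1.57 with D226N, 1.42 with F266S and 1.79 with FENG, with M253K between D226N and F266S. It was 1.39 with G87R and 1.69 with L388M, against 1.58 with wild-type FOXA1. Knockdown cells gave 1.57 and control cells 1.24, the smallest of the 9. Among D226N, M253K, F266S, FENG and knockdown cells, FENG alone lay outside the range of the other 4 constructs (1.24 to 1.69). The treatment accounted for 93% of the sum of squares of ODC1, the construct for 6.1% and the residual for 0.952%.

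**Figure D1:**
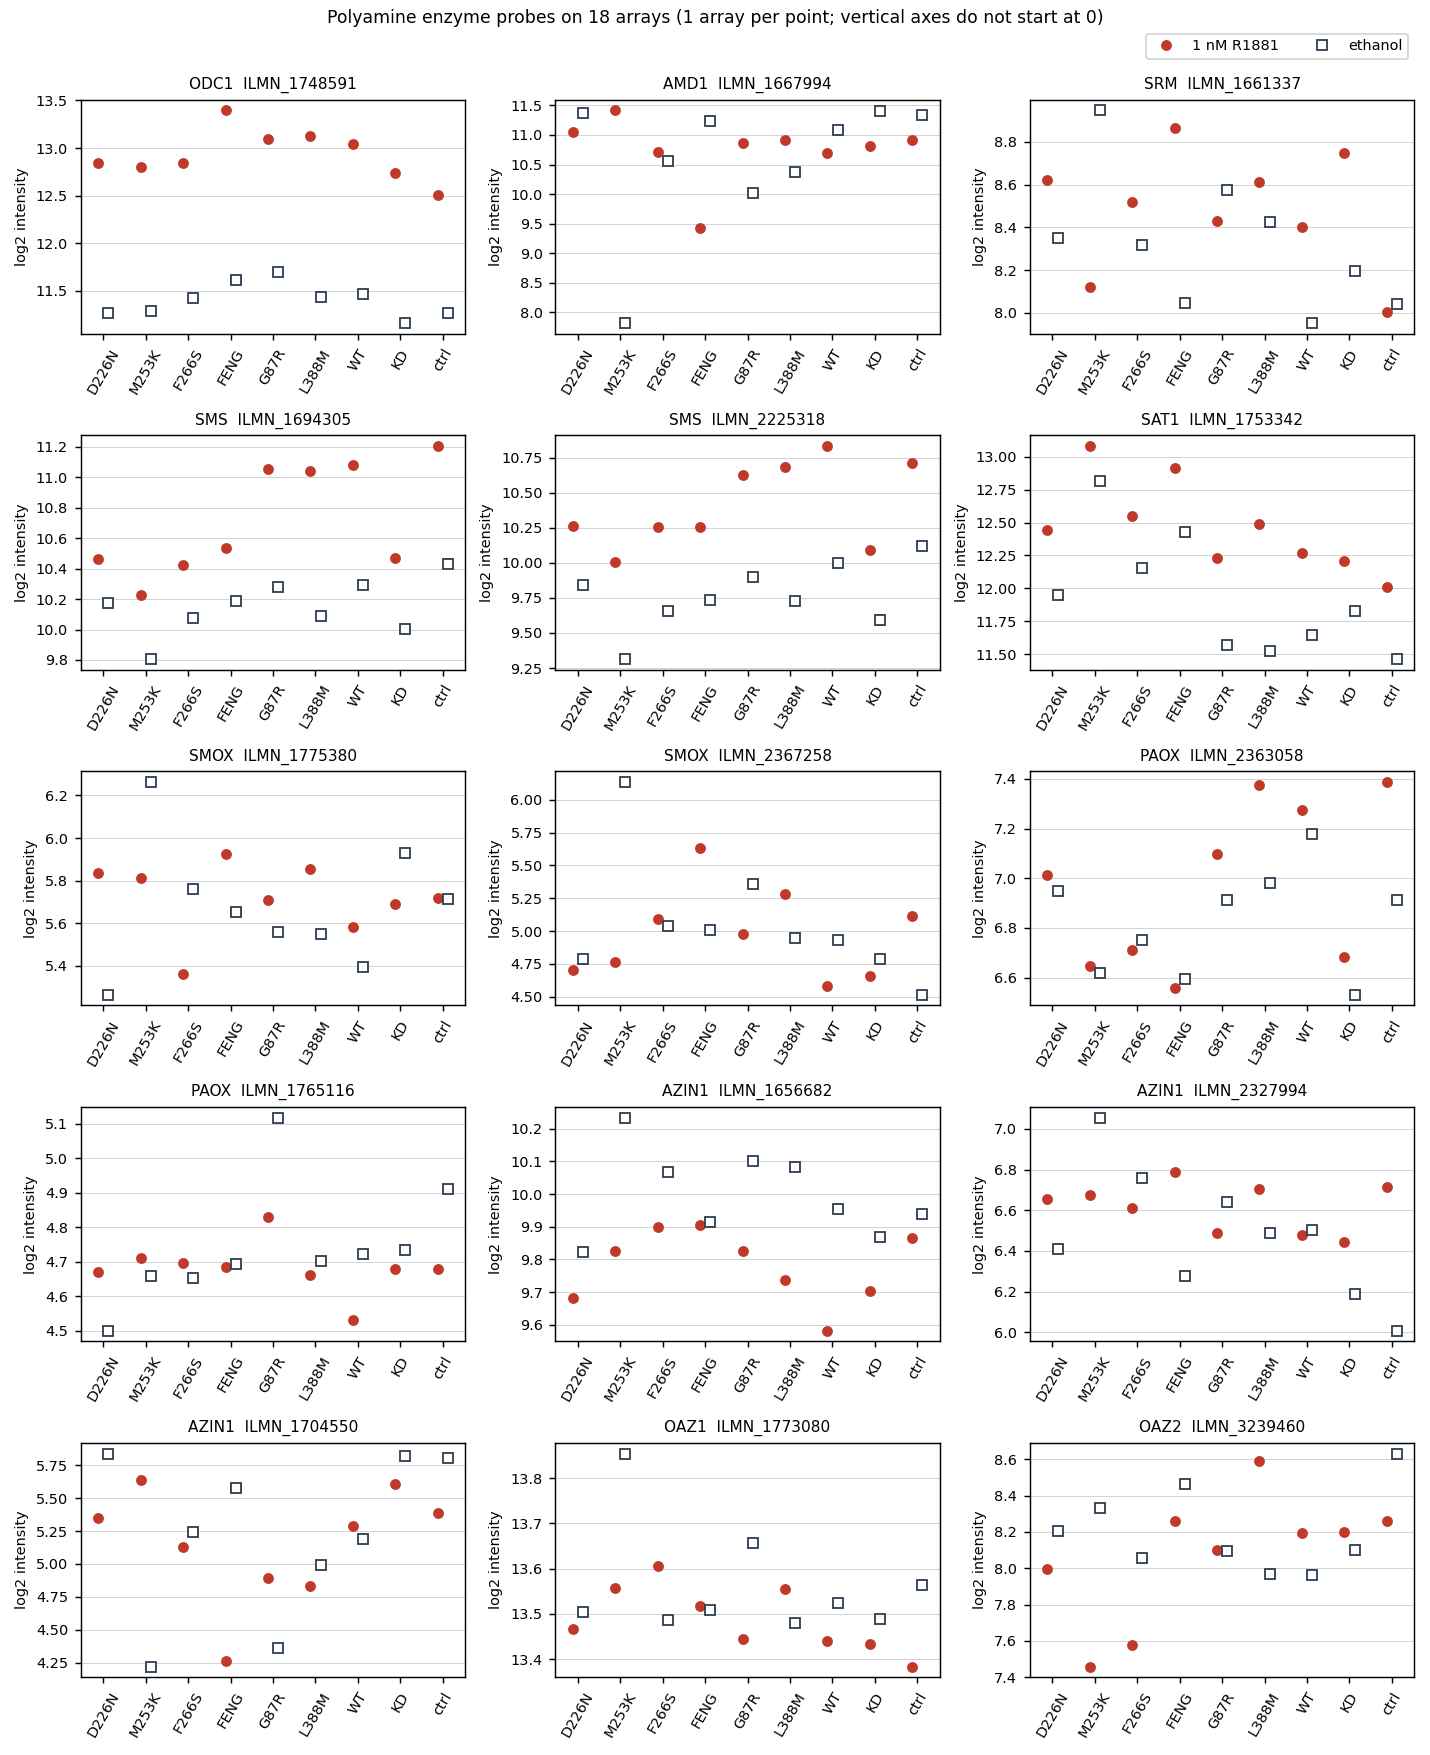
Log2 intensity of the kept probes on 18 arrays, with constructs on the horizontal axis (WT wild type, KD knockdown, ctrl control), filled points for 1 nM R1881 and open points for ethanol, 1 array per point. The 9 R1881 points of ODC1 sit between 12.51 and 13.40, above all ethanol points, and AMD1 drops to 7.82 on the M253K ethanol array.

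The promoters of ODC1, SMS and SAT1 are shown because these 3 genes were called with R1881 (RefSeq, GRCh38.p14, windows of 300 bases across the gene's start). They lie at chr2:10448278-10448577 on the minus strand for ODC1, chrX:21940459-21940758 on the plus strand for SMS and chrX:23782923-23783222 on the plus strand for SAT1. Capitals mark the GC box GGGCGG and the CCAAT box CCAAT, each read on either strand.
ODC1: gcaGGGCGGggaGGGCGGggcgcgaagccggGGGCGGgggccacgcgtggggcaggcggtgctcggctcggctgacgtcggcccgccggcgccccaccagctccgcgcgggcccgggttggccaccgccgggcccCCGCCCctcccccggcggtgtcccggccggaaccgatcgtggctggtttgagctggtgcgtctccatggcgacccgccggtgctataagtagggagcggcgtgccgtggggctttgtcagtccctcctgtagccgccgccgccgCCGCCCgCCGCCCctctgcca
SMS: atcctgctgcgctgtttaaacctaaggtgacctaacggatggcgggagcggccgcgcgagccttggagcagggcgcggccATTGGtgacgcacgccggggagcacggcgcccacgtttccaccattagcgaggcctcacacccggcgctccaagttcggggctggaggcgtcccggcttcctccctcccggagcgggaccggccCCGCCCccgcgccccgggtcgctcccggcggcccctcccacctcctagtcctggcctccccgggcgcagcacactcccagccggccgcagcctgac
SAT1: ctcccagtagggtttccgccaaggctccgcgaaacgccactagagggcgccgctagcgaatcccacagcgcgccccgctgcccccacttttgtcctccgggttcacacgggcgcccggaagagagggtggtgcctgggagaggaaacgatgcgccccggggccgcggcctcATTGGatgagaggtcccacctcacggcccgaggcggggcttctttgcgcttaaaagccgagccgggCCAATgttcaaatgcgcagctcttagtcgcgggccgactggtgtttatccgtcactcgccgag

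A promoter entry was found for 7 of the 10 members. A GC box, a common binding site of SP-family factors, was present in 6 of them (ODC1, AMD1, SRM, SMS, OAZ1 and OAZ2), against 45% of 35116 promoters of the same length. ODC1 had 6 matches and SMS 1. A CCAAT box, read by NF-Y, was present in 5 (AMD1, SRM, SMS, SAT1 and OAZ1), against 34.6%, with 2 matches in SAT1. The E-box CACGTG, read by MYC and MAX, was found in SRM, against 7.26% of promoters. The forkhead letters TGTTTAC and the androgen receptor half-site letters TGTTCT were in 0 of the 7 windows, against 3.42% and 14.8% of promoters, each searched on both strands. None of the motif words contains another. These matches describe letters in a short window and nothing further.

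SMS, spermine synthase (chromosome X, 21940709 to 21994837), rose on both probes. ILMN_1694305 was at 10.23 with M253K, a median of 10.54 and 11.21 in control cells under R1881, against 9.81 with M253K, a median of 10.18 and 10.43 in control cells in ethanol. ILMN_2225318 was at 10.00 with M253K, a median of 10.27 and 10.84 with wild type under R1881, against 9.31, 9.73 and 10.12 for the lowest, median and highest ethanol array. The arrays of the treatments overlapped on both probes, because levels differed between constructs, yet each construct was higher with R1881. The changes were 0.57 ± 0.08 (adjusted p = 0.000931) and 0.65 ± 0.07 (adjusted p = 8.67e-05, limma), or 1.49- and 1.57-fold.

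SAT1, spermidine/spermine N1-acetyltransferase (ILMN_1753342; chromosome X, 23783173 to 23786210), was at 12.01 in control cells, a median of 12.44 and 13.08 with M253K under R1881. In ethanol it was at 11.46 in control cells, a median of 11.83 and 12.82 with M253K. Control cells and M253K thus held the lowest and highest place under both treatments. The change with R1881 was 0.53 ± 0.08 (1.45-fold, adjusted p = 0.000698), higher in 9 of 9 constructs, from 0.26 with M253K to 0.97 with L388M. Of the sum of squares of SAT1, 32.7% went with treatment and 63.1% with construct.

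AZIN1 was the member nearest to a call in the other direction. Its brightest probe (ILMN_1656682; chromosome 8, 102826302 to 102864200) was at 9.58 with wild type, a median of 9.82 and 9.90 with FENG under R1881, against 9.82 with D226N, a median of 9.95 and 10.23 with M253K in ethanol. In 9 of 9 constructs its R1881 array was the lower one, with differences from -0.01 with FENG to -0.41 with M253K. The change of -0.22 ± 0.06 did not pass (adjusted p = 0.0525, limma). It passed without either FENG array (lowest adjusted p = 0.0349) and under 5 other settings (adjusted p from 0.0121 to 0.0358). With the 4 probes above, AZIN1 made 5 of 15 member probes that moved 1 way in all 9 constructs, against 7.14% of all probes.

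AMD1 supplies the aminopropyl donor by decarboxylating S-adenosylmethionine. Its probe (ILMN_1667994; chromosome 6, 110814617 to 110895713) was at 9.42 with FENG, a median of 10.86 and 11.42 with M253K under R1881, against 7.82 with M253K, a median of 11.08 and 11.41 in knockdown cells in ethanol. The 3 lowest of the 18 arrays were M253K ethanol and FENG R1881, the 2 farthest from the rest over all probes, and G87R ethanol (10.01). The androgen change was 0.18 ± 0.41 (adjusted p = 0.852), with single responses from -1.81 with FENG to 3.60 with M253K, and -0.17 ± 0.13 without those 3 arrays (adjusted p = 0.456). The residual took 67.9% of its sum of squares, the largest share of the 15 member probes.

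SRM, spermidine synthase (ILMN_1661337; chromosome 1, 11054589 to 11060018), ranged from 8.00 to 8.87 with R1881 and from 7.95 to 8.95 in ethanol. Its highest arrays were M253K ethanol and FENG R1881, where AMD1 was lowest. The change with R1881 was 0.16 ± 0.14 (adjusted p = 0.561), higher in 6 of 9 constructs.

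Among the antizymes, OAZ1 (ILMN_1773080; chromosome 19, 2269486 to 2273488) had the narrowest range of the fully detected probes, 13.38 to 13.61 with R1881 and 13.48 to 13.85 in ethanol, for a change of -0.07 ± 0.06 (adjusted p = 0.569). OAZ2 (ILMN_3239460; chromosome 15, 64687574 to 64703281) ranged from 7.46 to 8.59 with R1881 and from 7.96 to 8.63 in ethanol, for a change of -0.13 ± 0.13 (adjusted p = 0.630). OAZ2 was lower with R1881 in 5 of 9 constructs, from -0.87 with M253K to 0.63 with L388M.

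The oxidases were dim. PAOX (chromosome 10, 133379262 to 133391694) was detected on all arrays by ILMN_2363058, at 6.56 to 7.39 with R1881 and 6.53 to 7.18 in ethanol, a change of 0.15 ± 0.07 (adjusted p = 0.259). Its probe ILMN_1765116 was detected on 3 of 18 arrays. SMOX (chromosome 20, 4148828 to 4187727) was read by ILMN_1775380, detected on all arrays, and ILMN_2367258, detected on 11. Their androgen changes were 0.04 ± 0.11 and -0.08 ± 0.17 (adjusted p = 0.860 and 0.850). On both SMOX probes the brightest array was M253K ethanol, at 6.26 and 6.14.

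**Figure D2:**
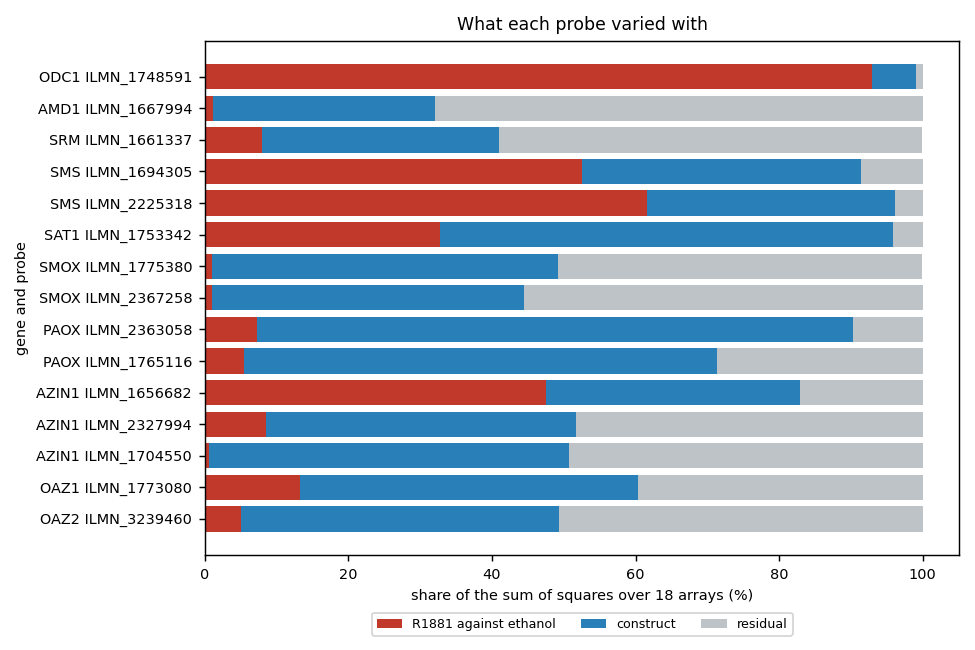
Share of each kept probe's sum of squares over 18 arrays that went with treatment, with construct and with the residual, in percent. ODC1 varied with treatment for 93%, PAOX ILMN_2363058 with construct for 82.9%, and AMD1 with neither, at a residual of 67.9%.

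Between constructs, the members called under the main settings were SMS, PAOX and SAT1, and ODC1 was called in no construct comparison under these settings. In knockdown cells the SMS probe ILMN_2225318 was at 10.09 with R1881 and 9.59 in ethanol, against 10.71 and 10.12 in control cells. It fell by 0.57 ± 0.15 on the log2 scale (adjusted p = 0.0415, limma), the only 1 of 15 member probes called, against 5.44% of all probes. The other SMS probe (-0.58, adjusted p = 0.0937) and PAOX ILMN_2363058 (-0.54, adjusted p = 0.0609) did not pass. This PAOX probe passed with no background correction, detection on all arrays, 1 probe per gene and array weights (adjusted p from 0.0323 to 0.0438, limma). It also passed without M253K ethanol, FENG R1881 and G87R ethanol (0.0379). The SMS call held in 6 of 18 fits without 1 array and was lost without either array of control, knockdown, wild type, G87R, D226N or F266S (adjusted p up to 0.268), and with median scaling (0.0892). ODC1 was at 12.73 with R1881 and 11.16 in ethanol in knockdown cells, against 12.51 and 11.26 in control cells.

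Re-expression of wild-type FOXA1 gave PAOX levels of 7.27 with R1881 and 7.18 in ethanol on ILMN_2363058, against 6.68 and 6.53 in knockdown cells. PAOX rose by 0.62 ± 0.15 (adjusted p = 0.04997, limma), 1 of 15 member probes against 2.90% of all probes. That value sits at the threshold. The call held in 6 of 18 fits without 1 array and was lost without either array of knockdown, wild type, G87R, D226N, F266S or L388M (adjusted p up to 0.303), with median scaling (0.106) and with the deposited processed values (0.0527). SMS changed by 0.58 ± 0.15 on ILMN_2225318 (adjusted p = 0.0616) and by 0.45 ± 0.18 on ILMN_1694305 (adjusted p = 0.283), and ODC1 by 0.31 ± 0.14 (adjusted p = 0.399), without passing. SMS ILMN_2225318 passed with no background correction, no filter, detection on all arrays and array weights (adjusted p from 0.0173 to 0.0471, limma). It also passed without M253K ethanol, FENG R1881 and G87R ethanol (0.0440). The FOXA1 probe was at 10.68 with R1881 and 10.86 in ethanol with wild type, against 11.07 and 11.16 in knockdown cells, and did not pass (adjusted p = 0.227). It is no check of re-expression, since the sources do not say whether it reads the introduced FOXA1.

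M253K had the most member calls of the 6 mutants, 4 of 15 probes against 8.84% of all probes. SAT1 was at 13.08 with R1881 and 12.82 in ethanol with M253K, against 12.27 and 11.65 with wild type, and rose by 0.99 ± 0.16 (1.99-fold, adjusted p = 0.00228, limma). SMS fell by 0.76 ± 0.15 on ILMN_2225318 (adjusted p = 0.00699) and by 0.67 ± 0.18 on ILMN_1694305 (adjusted p = 0.0371). PAOX ILMN_2363058 was at 6.65 with R1881 and 6.62 in ethanol with M253K, against 7.27 and 7.18 with wild type, a fall of 0.59 ± 0.15 on the log2 scale (adjusted p = 0.0298). Each of these 4 probes moved the same way under both treatments, so the direction does not rest on the M253K ethanol array. Without M253K ethanol, FENG R1881 and G87R ethanol, SAT1 was at 0.84 (adjusted p = 0.0212), SMS at -0.74 on ILMN_2225318 (0.0333) and at -0.76 on ILMN_1694305 (0.0525), and PAOX at -0.68 (0.0467).

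CD68 (brightest probe ILMN_1714861) was high with M253K and FENG, where SAT1 was called. It was also high in knockdown cells, where SAT1 was not called against control cells (0.28 ± 0.16, adjusted p = 0.441, limma). With F266S, CD68 rose by 1.42 (adjusted p = 0.00234, limma), and SAT1 was not called there (0.39, adjusted p = 0.274). With D226N, CD68 did not pass (0.92, adjusted p = 0.0747). It was at 9.98 with R1881 and 9.81 in ethanol with M253K and at 9.03 and 9.30 with FENG, against 7.79 and 7.19 with wild type. It rose by 2.41 with M253K and 1.68 with FENG (adjusted p = 1.82e-05 and 0.000642, limma), and by 2.51 with knockdown and 1.47 in the forkhead class (1.27e-05 and 2.32e-05). The CD68 probe ILMN_2359907 was called with M253K (1.34), knockdown (1.02) and in the forkhead class (0.67). It was not called with FENG (0.95, adjusted p = 0.0505, limma) or F266S (0.37, adjusted p = 0.566). The CD68 probe ILMN_2267914, detected on 11 of 18 arrays, was called in none of these comparisons. The summed intensity of the 3 leukocyte markers (log2) ran from 8.40 to 10.04 over the arrays of D226N, M253K, F266S, FENG and knockdown cells, against 7.07 to 8.34 over those of G87R, L388M, wild type and control cells, with PTPRC and CD3E undetected throughout. Of the fibroblast and endothelial markers, COL3A1 rose with M253K by 0.83 (adjusted p = 0.0208), and over those 5 genes the sum was at 7.86 and 8.30 with M253K, against 7.69 and 7.53 with wild type. COL1A1 (0.34) and VWF (0.58) did not pass with M253K (adjusted p = 0.283 and 0.0853, limma), and VWF was lower with knockdown (-0.87, adjusted p = 0.0193). By the brightest probe of each luminal marker, KLK3 was lower with M253K (-1.95, adjusted p = 0.000137). KLK3 (-1.44), KLK2 (-0.79), HOXB13 (-0.58) and FOLH1 (-0.37) were called lower in the forkhead class, and KRT8, KRT18 and STEAP2 were called in neither. The part of these markers in the SAT1, SMS and PAOX results was not tested.

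The SAT1 call with M253K held in 18 of 18 fits without 1 array, and median scaling ended it (0.66, adjusted p = 0.0706). The SMS call on ILMN_2225318 was lost without wild type R1881 (adjusted p = 0.0970), and that of PAOX without any 1 of the 4 wild-type and M253K arrays (up to 0.186). The call on ILMN_1694305 was lost without either array of knockdown, wild type or M253K (up to 0.258). With limma's array weights, SMS and PAOX no longer passed (adjusted p from 0.122 to 0.289), nor did PAOX with median scaling (0.0522). Without the M253K R1881 array, 7 of 15 member probes were called, against 25.3% of all probes. AMD1 in M253K was at 11.42 with R1881 and 7.82 in ethanol, against 10.70 and 11.08 with wild type, so its mean difference of -1.27 ± 0.86 (adjusted p = 0.399) came from 1 array.

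FENG shared part of that pattern, with 2 of 15 member probes called, against 3.39% of all probes. SAT1 was at 12.92 with R1881 and 12.43 in ethanol with FENG, against 12.27 and 11.65 with wild type, and rose by 0.71 ± 0.16 (adjusted p = 0.0295). PAOX ILMN_2363058 fell by 0.65 ± 0.15 on the log2 scale (adjusted p = 0.0362). Without the M253K ethanol, FENG R1881 and G87R ethanol arrays SAT1 was at 0.75 (adjusted p = 0.0600) and PAOX at -0.53 (adjusted p = 0.165), and neither passed. Median scaling also ended both calls (adjusted p = 0.327 for SAT1 and 0.117 for PAOX), and array weights that of PAOX (0.0668). SAT1 was lost without either array of wild type, D226N or FENG (adjusted p up to 0.241). PAOX was lost without either array of knockdown, wild type, G87R, D226N, FENG or F266S (up to 0.248).

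With G87R, D226N, F266S and L388M the count was 0 of 15 member probes each by limma, against 0%, 0.910%, 3.34% and 0.00497% of all probes. At an unadjusted p under 0.05 the counts were 1, 1, 4 and 0, against 1.75%, 7.95%, 14.1% and 2.34% of all probes. The 4 with F266S were both SMS probes (-0.44 and -0.46), SAT1 (0.39) and PAOX ILMN_2363058 (-0.49, adjusted p = 0.114). With L388M the SMS probes were at -0.12 and -0.21 and SAT1 at 0.05, and with G87R SAT1 was at -0.06. The ODC1 difference from wild type ran from -0.20 with D226N to 0.14 with G87R among these 4 mutants, each with an SE of 0.14.

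**Figure D3:**
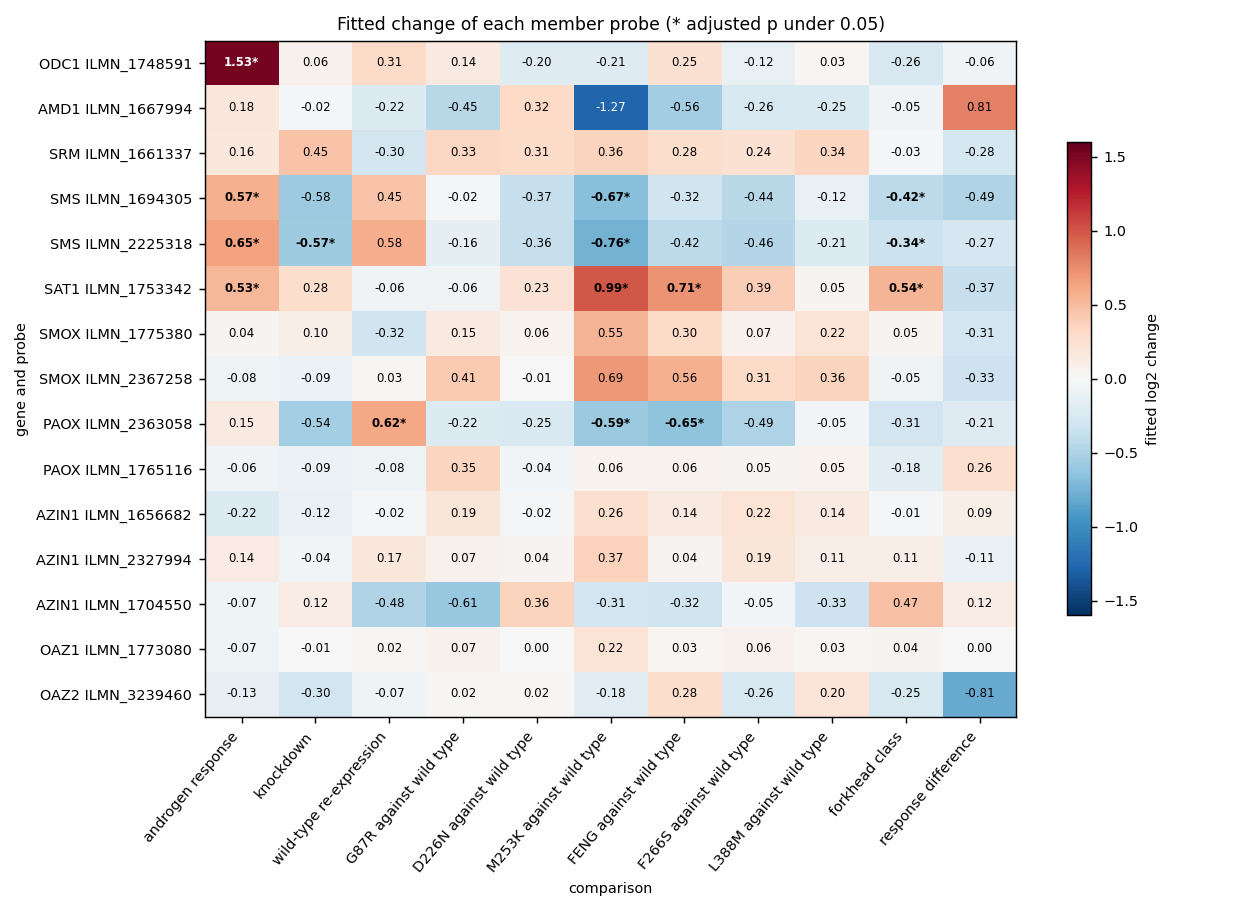
Heat map of the fitted log2 change of each kept member probe (down the page) in 11 comparisons (across), red for higher and blue for lower, with a star where the adjusted p was under 0.05. The forkhead class sets D226N, M253K and F266S against G87R with L388M. ODC1 is starred for androgen alone at 1.53, SAT1 reaches 0.99 for M253K, and AMD1 has no star in any column, also at -1.27 for M253K.

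Set together, D226N, M253K and F266S differed from G87R and L388M in SAT1 and SMS, with 3 of 15 member probes called against 8.79% of all probes. The error of this contrast, here and for the further genes below, leaves out the spread between mutants of a set. Its p-values thus speak of these constructs and not of forkhead mutants as a class. Against wild type, SAT1 was at 0.23 with D226N (adjusted p = 0.869, limma), 0.39 with F266S and 0.99 with M253K. The SMS probes were at -0.37 and -0.36 with D226N and did not pass (adjusted p = 0.673 and 0.527). SAT1 averaged 12.50 over the 6 forkhead-mutant arrays and 11.95 over the 4 others, a rise of 0.54 ± 0.10 (adjusted p = 0.00614, limma). The single SAT1 arrays overlapped, since L388M reached 12.49 with R1881 and D226N was at 11.95 in ethanol. The SAT1 call held in 18 of 18 fits without 1 array and in 9 of 9 alternative settings, at 0.47 without the same 3 arrays (adjusted p = 0.0263). SMS fell by 0.42 ± 0.12 on ILMN_1694305 (adjusted p = 0.0413) and by 0.34 ± 0.10 on ILMN_2225318 (adjusted p = 0.0423). Each SMS call held in 5 of 18 fits without 1 array. On ILMN_1694305 it was lost without either array of control, knockdown, wild type, G87R or F266S, or the R1881 array of D226N, M253K or L388M (adjusted p up to 0.218). On ILMN_2225318 it was lost without either array of control, knockdown, wild type, G87R, D226N or F266S, or L388M R1881 (adjusted p up to 0.222). Both SMS calls were also lost with median scaling (adjusted p = 0.265 and 0.371) and array weights (0.0778 and 0.0826), 1 with no filter on dim probes (0.0567) and the other without M253K ethanol, FENG R1881 and G87R ethanol (0.0708). ODC1 (-0.26 ± 0.09, adjusted p = 0.114) and PAOX ILMN_2363058 (-0.31 ± 0.10, adjusted p = 0.0733) did not pass. ODC1 passed with no background correction (-0.26, adjusted p = 0.0435, limma). PAOX ILMN_2363058 passed with wild type added to G87R and L388M (-0.36, adjusted p = 0.0189). AZIN1 ILMN_1704550, detected on 14 of 18 arrays, was at 0.47 and did not pass (adjusted p = 0.392, limma). It passed without the same 3 arrays (0.55, adjusted p = 0.0122), where 3 of 15 member probes were again called, against 11% of all probes. There the other AZIN1 probes were at -0.03 and 0.10 and did not pass.

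Under R1881 the SMS levels of the constructs fell in sets that did not overlap, which is a description and was not tested. On ILMN_1694305, D226N, M253K, FENG, F266S and knockdown cells were at 10.46, 10.23, 10.54, 10.42 and 10.47. G87R, L388M, wild type and control cells were at 11.06, 11.04, 11.08 and 11.21. No value of the first set reached the second, and the second SMS probe and PAOX ILMN_2363058 also did not overlap between these sets under R1881. Such separation held for 3 of 15 member probes, against 12.3% of all probes. In ethanol it held for SAT1 alone, 1 of 15 against 8.55%. The shares of the member probes, 20% and 6.67%, were not far from those of all probes, and both SMS probes count among the 3. The sets were chosen with earlier results of these data known.

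The androgen response of SMS differed in the same way as a description of single pairs of arrays. On ILMN_1694305 it was 0.29 with D226N, 0.42 with M253K, 0.35 with F266S, 0.35 with FENG and 0.47 in knockdown cells. With G87R it was 0.78, with L388M 0.95, with wild type 0.79 and in control cells 0.78. The first set averaged 0.37 ± 0.07 (SD, n = 5) and the second 0.82 ± 0.09 (SD, n = 4). SAT1 responses averaged 0.40 ± 0.09 in the first set and 0.70 ± 0.19 in the second, also without overlap. These were 2 of 15 member probes, against 2.09% of all probes, and the second SMS probe overlapped (0.42 to 0.69 against 0.59 to 0.96).

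**Figure D4:**
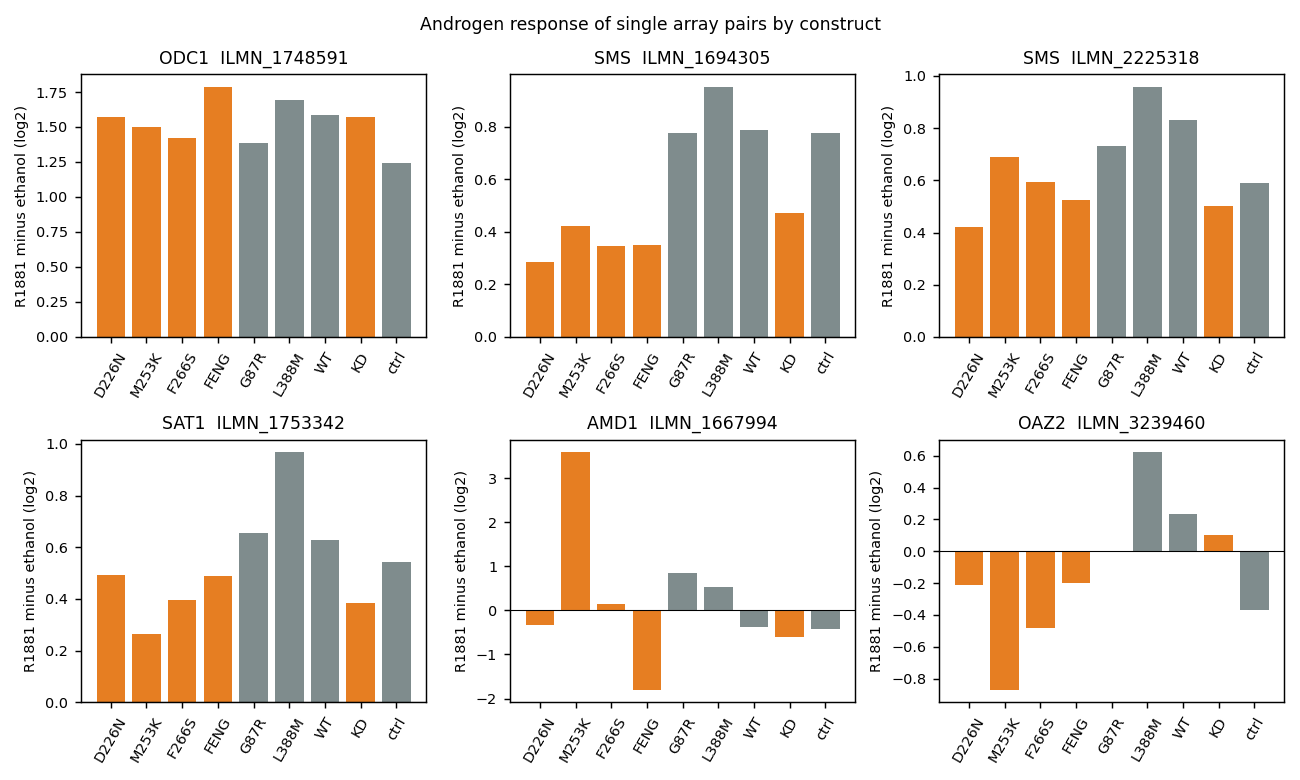
R1881 minus ethanol difference in log2 intensity for single array pairs by construct, with D226N, M253K, F266S, FENG and knockdown in orange and G87R, L388M, wild type and control in grey. The orange SMS ILMN_1694305 bars end at 0.29 to 0.47 and the grey ones at 0.78 to 0.95, while ODC1 bars of both colours lie between 1.24 and 1.79.

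The fitted test of that difference (3 responses of D226N, M253K and F266S against 3 of wild type, G87R and L388M) called 0 of 15 member probes and 0% of all probes with limma. At an unadjusted p under 0.05 there were 2 member probes, against 3.28% of all probes. These were SMS ILMN_1694305 at -0.49 ± 0.16 and OAZ2 at -0.81 ± 0.24 (adjusted p = 0.999 each). ODC1 was at -0.06 ± 0.16. With array weights 4 of 20117 probes passed this test, and 0 of the 15 member probes.

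Probes of 1 gene disagreed in sign for AZIN1, PAOX and SMOX but not for SMS. Over 11 comparisons and these 4 genes, 24 of 44 sets of probes held both signs. AZIN1 had both signs in 11 of 11 comparisons, PAOX in 8, SMOX in 5 and SMS in 0. In no set were probes of both signs called. The AZIN1 probe ILMN_1704550, detected on 14 of 18 arrays, was lowest on M253K ethanol (4.22), FENG R1881 (4.26) and G87R ethanol (4.36), the same arrays as AMD1. The AZIN1 probes ILMN_1656682 and ILMN_2327994 were highest on M253K ethanol, at 10.23 and 7.05. For PAOX, the called probe ILMN_2363058 stood against ILMN_1765116 at 0.06 in M253K and in FENG. In wild-type re-expression it was called at 0.62, against -0.08 for ILMN_1765116. This second PAOX probe was near background. With probes detected on all arrays only, PAOX and SMOX kept 1 probe each and could not disagree. The 5 sets that then held both signs were all of AZIN1, between ILMN_1656682 and ILMN_2327994, out of 11 comparisons.

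Among 39 further genes of polyamine supply, salvage, transport and use, 32 had a kept probe, taken as the brightest of each gene. With R1881, 1 was higher and 2 lower, against 11.6% called in either direction over the brightest probe of all 11590 genes: ADI1, an enzyme of methionine salvage, rose by 0.56, SLC18B1, a vesicular polyamine transporter, fell by 0.39 on the log2 scale, and SLC7A2, a cationic amino acid transporter, fell by 0.40. SLC7A2 did not pass under median scaling (adjusted p = 0.0861), nor without either array of control, wild type, G87R, D226N or L388M (up to 0.0627). The median change was 0.05 over the 32 genes. Second probes called with R1881 included APIP ILMN_2128293 at 0.42 (adjusted p = 0.00504, limma) and ASS1 ILMN_1708778 at -0.42 (adjusted p = 0.011). The brightest probes of APIP, a gene of methionine salvage, and ASS1 had the same signs without passing (0.37 and -0.29, adjusted p = 0.195 and 0.123). The 4 hypusine genes, which use spermidine to modify the factor EIF5A, had 0 calls in the 11 comparisons by limma, with 1 at an unadjusted p under 0.05 in each of 2 of them (knockdown and the forkhead class).

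With knockdown 2 of the 32 genes were called, against 6.80% of genes, and with re-expression 2, against 3.63%. OAT and ARG2, which handle ornithine, were among them, and their androgen changes of 0.05 and -0.11 did not pass (adjusted p = 0.781 and 0.568, limma). OAT, ornithine aminotransferase, was at 7.44 with R1881 and 7.16 in ethanol in knockdown cells, against 6.19 and 5.91 in control cells, a rise of 1.25 ± 0.17 (adjusted p = 0.000837, limma), and its second probe, ILMN_1654441, rose by 1.25. OAZ3, an antizyme known from testis, rose by 0.79 ± 0.14 with knockdown (adjusted p = 0.00611) and fell by 1.07 ± 0.14 on the log2 scale with wild-type re-expression (adjusted p = 0.00119). These share the knockdown arrays, and the first did not pass under median scaling (adjusted p = 0.0536), nor without control ethanol (0.0620) or knockdown ethanol (0.0746). ARG2, an arginase, rose by 1.30 ± 0.20 with re-expression (adjusted p = 0.00314), at 6.74 with R1881 and 6.42 in ethanol with wild type, against 5.31 and 5.26 in knockdown cells, and did not pass without wild type R1881 (0.0656). OAT was at -0.26 with re-expression (adjusted p = 0.613).

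Against wild type, M253K had 5 of the 32 genes higher and 2 lower, against 10.8% of genes called. SLC3A2, a transporter subunit linked to polyamine exchange, rose by 1.49 ± 0.21 with M253K, 1.23 ± 0.21 with FENG and 1.12 ± 0.21 with F266S (adjusted p = 0.000745, 0.00527 and 0.00944). Without M253K ethanol, FENG R1881 and G87R ethanol these were 1.21, 0.96 and 1.12, all called. Median scaling ended the calls with FENG (0.0602) and F266S (0.101). Leaving out a wild-type array also ended both (up to 0.109), as did FENG R1881 for FENG (0.0639) and either F266S array for F266S (up to 0.120). Its second kept probe, ILMN_1679041, was at 4.33 on M253K ethanol, 4.65 on FENG R1881 and 4.67 on G87R ethanol, against 5.70 or more on the other 15 arrays, and was not called. With M253K SLC18B1 rose by 1.12, ASS1, which makes argininosuccinate, by 1.01, SLC7A1, an arginine transporter, by 0.78 and OAZ3 by 0.74. MYC, known to act on ODC1 transcription, fell by 0.88 ± 0.19 on the log2 scale (adjusted p = 0.0116) and AHCY, which clears S-adenosylhomocysteine, by 0.72 ± 0.16 (adjusted p = 0.0124). The second MYC probe, ILMN_2110908, was at -0.36 and did not pass (adjusted p = 0.219), whereas the second ASS1 probe, ILMN_1708778, was called (1.17).

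Without the same 3 arrays, SLC18B1 (0.86), ASS1 (0.75) and OAZ3 (0.68) were still called with M253K, and SLC7A1 (0.45, adjusted p = 0.130), MYC (-0.72, 0.0789) and AHCY (-0.55, 0.0517) were not. Array weights ended the calls of ASS1, SLC7A1, OAZ3, MYC and AHCY (adjusted p from 0.0764 to 0.136), and median scaling those of ASS1, SLC7A1 and OAZ3 (from 0.0535 to 0.177). The calls of ASS1, SLC7A1, MYC and AHCY were also lost without M253K ethanol, wild type ethanol or wild type R1881, and that of OAZ3 without wild type ethanol (up to 0.201). On these arrays ODC1 was at 12.80 with R1881 and 11.29 in ethanol with M253K, against 13.05 and 11.46 with wild type, a difference that did not pass. For FENG, OAZ3 was the other called gene (0.58), for 2 of 32 against 4.37% of genes, and its call was lost in 4 alternative settings and in 16 of 18 fits without 1 array. For F266S the count was 1, against 4.26%. For G87R, D226N and L388M 0 of 32 were called by limma, against 0%, 1.11% and 0.00863% of genes, and 0, 4 and 1 had an unadjusted p under 0.05.

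**Figure D5:**
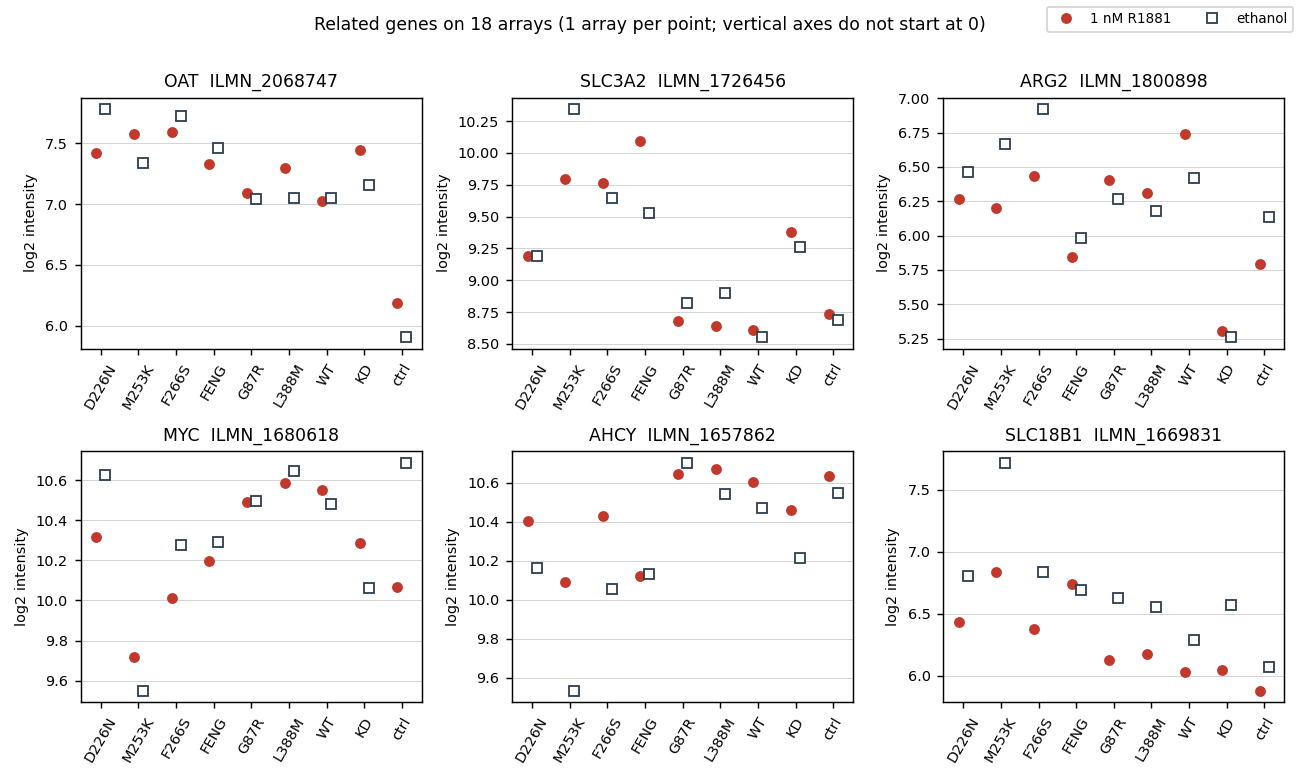
Log2 intensity of 6 related genes on 18 arrays by construct, filled for 1 nM R1881 and open for ethanol, 1 array per point. OAT is lowest in control cells (6.19 and 5.91), ARG2 in knockdown cells (5.31 and 5.26), and MYC and AHCY on M253K ethanol (9.55 and 9.53).

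The contrast of forkhead mutants (D226N, M253K, F266S) with G87R and L388M gave 3 of the 32 genes higher and 2 lower, against 10.8% of genes called. SLC3A2 rose by 0.90, SLC18B1 by 0.46 and OAT by 0.45, and AHCY fell by 0.53 and MYC by 0.47 on the log2 scale. The second probes of MYC (-0.24, adjusted p = 0.221) and OAT (0.26) did not pass. Without the same 3 arrays MYC was at -0.46 and not called (0.0621), and the other 4 genes were called. Median scaling ended every one of these calls but that of SLC3A2 (adjusted p from 0.0654 to 0.186). Leaving out 1 array ended the call of MYC in 7 of 18 fits, of OAT in 6 and of SLC18B1 in 8, in each case without an array of G87R, D226N, F266S or L388M (up to 0.118). The brightest MYC probe was at 9.55 on M253K ethanol and 9.72 on M253K R1881, below the other 16 arrays.

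The genes outside the members whose probe followed ODC1 most closely over the 18 arrays were PTCRA (Pearson r = 0.97), ADPRM (0.96), FKBP5 (0.95), MPC2 (0.94) and ELL2 (0.94). The 18 arrays differ in treatment, R1881 or ethanol, so genes that rise with R1881 are alike over them by that alone. Their own changes with R1881 were 1.16 for PTCRA, 0.91 for ADPRM, 2.89 for FKBP5, 1.04 for MPC2 and 1.49 for ELL2, against 1.53 for ODC1.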

How the data were processed

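The authors deposited a raw intensity and a detection p-value for 47303 probes of the Illumina HumanHT-12 array on each of 18 arrays, per the file headers. The submitters' processing notes name GenomeStudio without a version. Processed intensity values were deposited for the same arrays in another table, used as an alternative. Its median was 5.2 and its lowest value -15.4 on each array, and neither its making nor the slides and scan dates are given in the sources used here. Columns of other samples numbered 0.

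The raw intensity was background corrected from the detection p-values, quantile normalized and taken to log2 (limma's neqc, offset 16; limma 3.58.1, statmod 1.5.0, R 4.3.3). Probes with a detection p-value under 0.01 on at least 2 arrays were kept (20117). Every probe was tested for itself, with limma's lmFit and eBayes on construct and treatment (8 residual degrees of freedom) and Benjamini-Hochberg adjustment over the kept probes. The difference in response was fitted on R1881 minus ethanol differences (4 residual degrees of freedom). The fit was tested on simulated data. The annotation gave 1 gene for 30102 probes, several for 8 and none for 17193. The number of arrays limits the precision.

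Named were all members, the called genes of the wider lists (at most the 3 with the largest change per list), FOXA1 and androgen targets (FKBP5 is given) as checks, and the 5 genes most like ODC1. The members and lists were chosen with earlier results of these data known, and so were the sets of constructs set against each other. Alternatives were median scaling, no background correction, no filter, detection on all arrays, the deposited processed values, 1 probe per gene, array weights, leaving out 3 arrays together (M253K ethanol, FENG R1881 and G87R ethanol) or each array, and other sets of constructs.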

Additional observations from a re-analysis of the deposited data

Results flagged for a closer look

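AMD1 had a single array far below the others under each treatment. With R1881, FENG was at 9.42, and the nearest of the other 8 arrays was at 10.70. In ethanol, M253K was at 7.82, and the nearest was at 10.01. OAZ1 was at 13.85 in ethanol with M253K, above all other ethanol arrays, of which the nearest was at 13.66. Chance alone marks about 1 in 20 groups in this way, and 15 probes under both treatments were examined. M253K ethanol and FENG R1881 were also the arrays that lay farthest from the rest over all probes, and the part of this in the values was not tested.

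The responses of 2 probes to R1881 ran 1 way in D226N, M253K and F266S and the other way in wild type, G87R and L388M. The share of all probes that did so was not counted. For PAOX ILMN_1765116, D226N, M253K and F266S were all higher and wild type, G87R and L388M all lower with R1881, a difference of 0.26 on a probe detected on 3 of 18 arrays. There FENG was at -0.01, knockdown cells at -0.05 and control cells at -0.23. For OAZ2, D226N, M253K and F266S were all lower and wild type, G87R and L388M all higher, G87R by only 0.004. The difference was -0.81. Yet FENG was at -0.20, knockdown cells at 0.10 and control cells at -0.37, so that the responses overlapped over all constructs. The fitted test of the difference did not pass for either (adjusted p = 0.999, limma).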

How the results depend on the processing

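The construct term pairs the R1881 and ethanol arrays of each construct, and the labels carry no replicate numbers to use as a further block. The androgen calls of ODC1, both SMS probes and SAT1, and the SAT1 call in the forkhead class, held under every alternative that gave them a value, and the response was higher on these 4 probes in every construct whose arrays were both used. With median scaling, the count of called member probes was 0 for knockdown, 0 for re-expression, 2 for M253K, 0 for FENG and 1 for the forkhead class (3.10%, 1.91%, 7.04%, 2.00% and 4.75% of all probes). Array weights gave 2 for knockdown, 2 for re-expression, 1 for M253K, 1 for FENG, 2 for F266S and 1 for the forkhead class (8.55%, 7.46%, 2.70%, 3.01%, 11.6% and 8.07%). Without M253K ethanol, FENG R1881 and G87R ethanol, counts were 2 for knockdown, 2 for re-expression and 0 for FENG (10.6%, 6.07% and 3.34%). No background correction gave 2 for knockdown and 2 for re-expression (6.01% and 3.08%), as did detection on all arrays (7.08% and 3.33%). Re-expression gave 2 with no filter (1.17%) and 0 with the deposited processed values (2.93%). Sets of probes with both signs numbered 5 with detection on all arrays, all of AZIN1, since PAOX and SMOX then keep 1 probe each. Leaving out 1 array gave 4 to 5 calls for androgen, 0 to 2 for knockdown, 0 to 2 for re-expression, 1 to 7 for M253K, 0 to 2 for FENG, 1 to 4 for the forkhead class, 0 for the other comparisons, 20 to 25 sets of both signs, and 8 constructs with all 4 probes higher. In these fits, 6.89% to 12% of all probes were called for androgen and 4.52% to 12.6% for the forkhead class. Further shares are from fits that kept both arrays of each construct compared. They were 4.43% to 7.71% for knockdown, 2.34% to 4.18% for re-expression and 7.16% to 10.4% for M253K. FENG had 2.67% to 5.63%, D226N 0.696% to 1.36% and F266S 2.64% to 5.3%. The counts of member probes are not read apart from these shares. Changes of sign, all of values not called, were AMD1 with R1881 at -0.066 with array weights and -0.17 without the 3 arrays, and SMOX ILMN_2367258 at 0.074 without them. With control, wild type, G87R and L388M only, SMOX ILMN_2367258 was at 0.051, AZIN1 ILMN_1704550 at 0.011 and OAZ2 at 0.12. Leaving out 1 array gave androgen changes from -0.25 to 0.43 for AMD1, -0.26 to 0.082 for AZIN1 ILMN_1704550, -0.021 to 0.11 for SMOX ILMN_1775380 and -0.16 to 0.085 for SMOX ILMN_2367258. The causes were not tested. Signal near background limits both SMOX probes, PAOX ILMN_1765116 and AZIN1 ILMN_1704550.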
